A study of Mus musculus with 17 samples.

Results

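The genes described here are 9 interferon response and MHC class I genes, Ifit1, Ifit3, Isg15, Irf7, Bst2, Ifitm3, H2-K1, H2-D1 and B2m, chosen by symbol from a table of mouse cortex RNA with 55453 distinct gene symbols. All 9 were in the table, and all 9 were among the 16265 genes that reached a mean of 1 TPM (a length-corrected share of all transcripts in a sample) and were tested. Bulk cortex RNA was measured in 17 male mice of the C57BL/6J strain. Hemizygous Hnrnph2 KO mice (n = 3) and their wild-type controls (n = 3) were 8 weeks old, as were hemizygous Hnrnph2 R206W mice (n = 3) and their wild-type controls (n = 3). Hemizygous Hnrnph2 P209L mice (n = 3) and their wild-type controls (n = 2 analysed here) were 3 weeks old. Hnrnph2 is an X-linked gene for an RNA-binding protein. R206W and P209L are amino acid substitutions of the human disorder placed in the mouse gene, and a KO allele described by the study is a small insertion or deletion that shifts the reading frame and arose while the knockins were being made. The study describes more than a single KO line, and the labels do not say which was sequenced. The paper places the line with this small change on C57BL/6J, the strain of these mice, and its other KO line on C57BL/6NJ. It also uses the name KO for the former in its figures. The allele itself was not checked here. Because P209L is the only line at 3 weeks, line and age cannot be told apart for it.

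Interferons are secreted proteins that cells release on meeting viral or misplaced nucleic acid. They bind surface receptors, JAK kinases phosphorylate STAT proteins, and STAT and IRF factors switch on genes that carry an interferon-stimulated response element (ISRE) near their start. Many of these genes block viral RNA, protein synthesis or budding, and others raise MHC class I, the surface complex of a heavy chain and beta-2 microglobulin that shows peptides to CD8 T cells. In healthy brain a low tonic interferon signal is known, with microglia and blood vessel cells as frequent sites of expression, and neurons carry some MHC class I.

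Promoter sequence is shown because many interferon-induced genes carry such an element, and the lines show which of the 9 genes hold a strict form of its core there. RefSeq windows (GRCm38.p6, 250 bases before to 50 after the start) were available for all 9. The ISRE core, GAAA then any 2 bases then GAAA, was searched on both strands. It lay in a window of 6 of the 9 genes and in 3.44% of all 32851 promoter entries of that length. The first count is by gene and the second by entry, and a gene can have several entries. The lines give the stretch around the matches, 5′ to 3′ along the gene, with every matching base in capitals. Where matches overlap, the capitals run together, and a match on the opposite strand appears as its reverse complement.
Ifit1 (chr19:34640770-34640829, plus strand): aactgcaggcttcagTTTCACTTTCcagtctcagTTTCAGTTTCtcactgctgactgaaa
Ifit3 (chr19:34583365-34583424, plus strand): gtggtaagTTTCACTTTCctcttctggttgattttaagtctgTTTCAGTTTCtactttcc
Isg15 (chr4:156200856-156200915, minus strand): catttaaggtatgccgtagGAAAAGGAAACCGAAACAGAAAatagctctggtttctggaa
Bst2 (chr8:71537565-71537624, minus strand): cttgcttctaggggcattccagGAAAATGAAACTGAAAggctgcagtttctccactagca
Ifitm3 (chr7:141010714-141010743, minus strand): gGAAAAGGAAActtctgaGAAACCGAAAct
B2m (chr2:122147523-122147582, plus strand): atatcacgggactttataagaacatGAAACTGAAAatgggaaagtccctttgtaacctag

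The Isg15 window held 3 matches, Ifit1, Ifit3, Bst2 and Ifitm3 held 2 each, and B2m held 1. The Ifitm3 matches fell just after the RefSeq start, and the others fell before it. The windows of the 2 heavy chain genes had no match to this strict core and held an NF-kB site, GGGGA joined to TTCCC. Only this exact sequence was searched for, on both strands, and other forms of the site were not. It lay in 0.107% of all promoters and is shown next in capitals.
H2-K1 (chr17:34000424-34000483, minus strand): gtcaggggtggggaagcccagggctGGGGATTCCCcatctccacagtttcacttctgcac
H2-D1 (chr17:35262898-35262957, plus strand): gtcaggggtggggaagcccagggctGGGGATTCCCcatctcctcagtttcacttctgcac

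These H2-K1 and H2-D1 stretches were identical at 59 of 60 bases, so their matches are not independent of each other. Irf7 held neither motif in its window. The ISRE core was in 38.6% of the 83 genes of a wider interferon list that had a promoter entry, and in 18.2% of the 22 such genes of a wider MHC class I list. A match is a description of letters and not evidence of factor binding. A window without a match may hold a looser form of either motif, which was not searched for.

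Hnrnph2 itself was at 80.5 to 145 TPM in the KO controls and 21.3 to 24.4 TPM in the KO mice, and in R206W and P209L mice it overlapped their controls. Depth cannot be read from TPM, so no counting error is given for any value. The labels give each sample as a separate mouse. The library KO control 1 stood apart, with 20.1% of its TPM from mitochondrial genes against 10.7% to 15.4% in the other 16. In P209L control 2 the summed choroid plexus markers reached 1783 TPM against 4.8 to 28.4 elsewhere. Cortical neuron markers summed to 4577 TPM or more in every mouse. Lymphocyte markers, among them Cd3e and Cd8a, summed to 0.9 to 3.0 TPM, and none of the 10 passed the filter on low values. In bulk tissue, fewer cells of a type and less RNA per cell cannot be told apart.

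In the 6 wild-type mice of 8 weeks, the 9 genes differed widely in level per length. B2m, the invariant light chain of MHC class I, was highest at 203 ± 14.1 TPM (SD, n = 6), which placed its mean over all mice at the 96.4th percentile of tested genes. The classical heavy chains followed, H2-K1 at 37.5 ± 6.83 TPM and H2-D1 at 32.6 ± 6.22 TPM. The ranges of these heavy chains overlapped, although H2-K1 was above H2-D1 in each of the 17 mice, and the light chain exceeded their sum in every mouse. Among the interferon-induced genes Ifitm3 led with 21.4 ± 2.39 TPM, followed by Ifit3 with 10.3 ± 1.25 TPM and Bst2 with 5.23 ± 0.87 TPM. The lowest levels were those of Isg15 at 3.90 ± 0.68 TPM, Ifit1 at 2.82 ± 0.37 TPM and Irf7 at 1.93 ± 0.20 TPM, whose mean over all mice was at the 16.5th percentile. Bst2 and Isg15 overlapped, as did Isg15 and Ifit1, whereas Irf7 lay below every value of Ifit1. The widest span over all 17 mice was that of Isg15, whose highest value was 5.12 times its lowest, and the narrowest was that of B2m at 1.59 times.

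**Figure D1:**
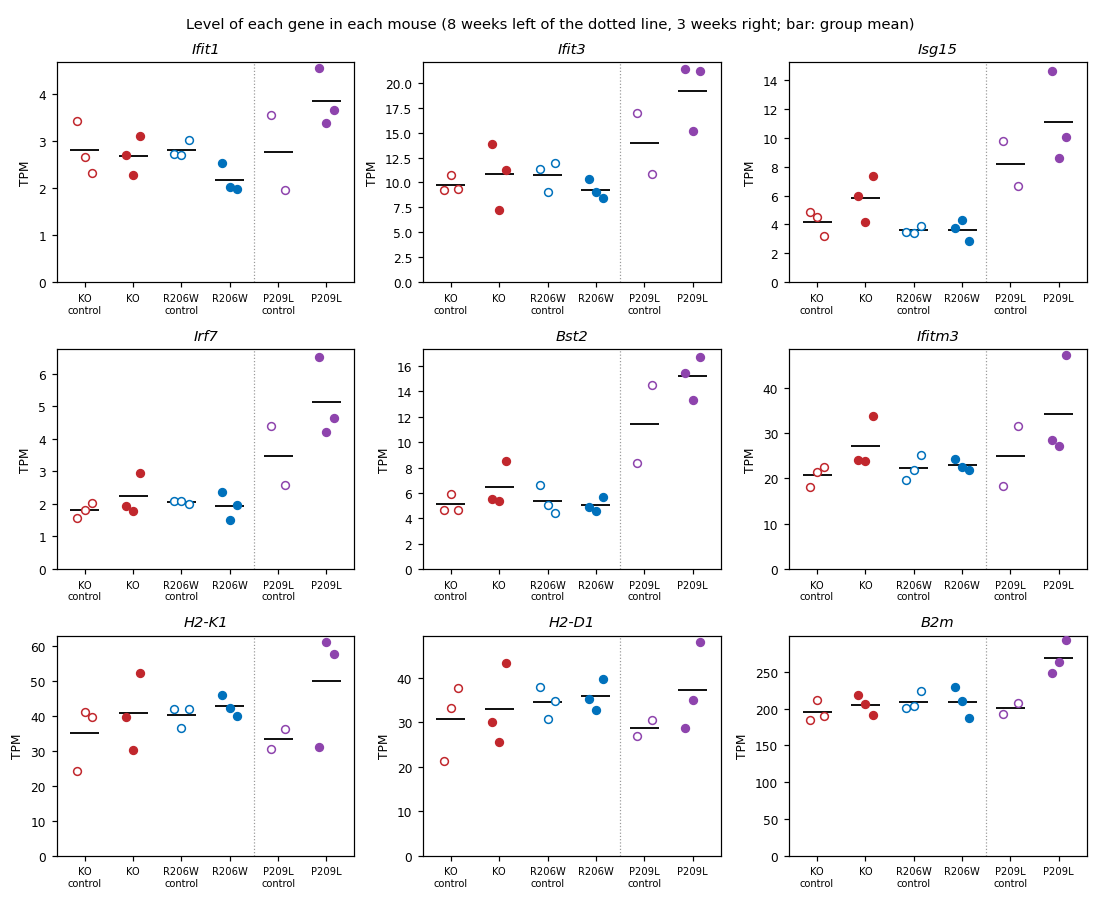
Level of each of the 9 genes in TPM (vertical axis, from 0) in each of 17 mice, by group; open points are wild-type controls, filled points are mutants and bars are group means. Left of the dotted line mice were 8 weeks old, right of it 3 weeks old. Isg15, Irf7 and Bst2 sit higher in both 3-week groups, and B2m is highest in the 3 P209L mice.

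Isg15 (chr4:156199424-156200818, minus strand) encodes a ubiquitin-like protein that is joined to other proteins after interferon signalling. It was at 4.88, 4.54 and 3.18 TPM in the KO controls and 5.97, 4.14 and 7.38 TPM in the KO mice. The R206W controls had 3.47, 3.42 and 3.91 TPM and the R206W mice 3.74, 4.31 and 2.86 TPM. The P209L controls had 9.80 and 6.64 TPM and the P209L mice 14.7, 8.62 and 10.03 TPM. Both P209L controls were above all 6 controls of 8 weeks, whereas mutants and controls overlapped in each line. Only KO 3 among the 8-week mice exceeded the lower P209L control.

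Irf7 (chr7:141262706-141266481, minus strand) encodes the transcription factor that amplifies type I interferon production. Its levels were 1.57, 1.81 and 2.02 TPM in the KO controls and 1.95, 1.78 and 2.96 TPM in the KO mice. They were 2.08, 2.09 and 2.00 TPM in the R206W controls and 2.38, 1.5 and 1.97 TPM in the R206W mice. At 3 weeks they were 4.38 and 2.59 TPM in the controls and 6.51, 4.21 and 4.63 TPM in the P209L mice. The 3-week controls again lay above every 8-week control, and 1 of the 2 lay inside the P209L range.

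Bst2 (chr8:71534255-71537456, minus strand) encodes tetherin, a membrane protein that holds budding enveloped virus at the cell surface. It was at 4.66, 5.94 and 4.67 TPM in the KO controls and 5.49, 5.34 and 8.51 TPM in the KO mice. The R206W controls had 6.63, 5.04 and 4.43 TPM and the R206W mice 4.87, 4.54 and 5.69 TPM. The P209L controls differed from each other, with 8.34 and 14.5 TPM, and the P209L mice had 15.5, 13.4 and 16.7 TPM. Apart from KO 3, every 8-week mouse was below every 3-week mouse. The higher of the P209L controls, P209L control 2, is the library with the choroid plexus markers.

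Ifit1 (chr19:34640871-34650009, plus strand) encodes a protein that binds viral RNA lacking a host cap. Its values were 3.43, 2.66 and 2.33 TPM in the KO controls, and 2.7, 2.28 and 3.11 TPM in the KO mice. The R206W controls had 2.74, 2.71 and 3.02 TPM, all above the R206W mice at 2.55, 2.02 and 1.99 TPM. The P209L controls had 3.57 and 1.97 TPM and the P209L mice 4.56, 3.39 and 3.66 TPM. P209L control 2 held the lowest value of the series and P209L 1 the highest. In the transcript annotation 3.29% of the 100-base stretches of Ifit1 also occur in Ifit1bl2.

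Ifit3 (chr19:34583531-34588731, plus strand) encodes a partner of Ifit1 and lies on the same chromosome. It was at 9.23, 10.8 and 9.37 TPM in the KO controls and 13.9, 7.24 and 11.3 TPM in the KO mice. The R206W controls had 11.3, 9.0 and 12 TPM and the R206W mice 10.3, 9.07 and 8.42 TPM. The P209L controls had 16.9 and 10.9 TPM and the P209L mice 21.4, 15.2 and 21.1 TPM. Mutants and controls overlapped in all 3 lines. Its values are uncertain, because 31.7% of its 100-base stretches also occur in Ifit3b and the rule by which shared reads were divided is not given in the sources used here.

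Ifitm3 (chr7:141009586-141010770, minus strand) encodes a membrane protein that restricts virus entry from endosomes. It was at 18.2, 21.4 and 22.4 TPM in the KO controls, all below the KO mice at 24.2, 23.8 and 33.8 TPM. The R206W controls had 19.7, 21.8 and 25.2 TPM and the R206W mice 24.4, 22.5 and 21.9 TPM. The P209L controls had 18.3 and 31.6 TPM and the P209L mice 28.4, 27.2 and 47.2 TPM. P209L control 2 was above 2 of the 3 P209L mice, so these groups overlapped.

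H2-K1 (chr17:33996017-34000347, minus strand) and H2-D1 (chr17:35262730-35267499, plus strand) encode the classical class I heavy chains of this strain. H2-K1 was at 24.2, 40.9 and 39.7 TPM in the KO controls and 39.7, 30.1 and 52.2 TPM in the KO mice. It was at 41.8, 36.6 and 41.9 TPM in the R206W controls and 45.9, 42.2 and 40.0 TPM in the R206W mice. The P209L controls had 30.6 and 36.1 TPM, and the P209L mice 31.2, 61.0 and 57.5 TPM. The low value among the 8-week controls was that of KO control 1, and P209L 1 stayed within the range of its controls while P209L 2 and P209L 3 were above it.

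H2-D1 was, like H2-K1, lowest in KO control 1 among the controls, lowest in KO 2 and highest in KO 3 among the KO mice. Its KO controls were at 21.2, 33.2 and 37.6 TPM and its KO mice at 30.1, 25.4 and 43.3 TPM. Its R206W controls were at 37.9, 30.6 and 34.8 TPM and its R206W mice at 35.2, 32.6 and 39.7 TPM. Its P209L controls were at 27.0 and 30.4 TPM and its P209L mice at 28.7, 35.0 and 48.1 TPM. The groups overlapped in all 3 lines. Of the 100-base stretches of H2-D1, 3.59% also occur in other genes, most of them in H2-Q1, and for H2-K1 the share was 0.957%.

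B2m (chr2:122147686-122153083, plus strand) encodes the light chain that every class I molecule needs to reach the surface. It was at 185, 212 and 190 TPM in the KO controls and 219, 205.9 and 192 TPM in the KO mice. The R206W controls had 202, 204 and 223 TPM and the R206W mice 229, 211 and 187 TPM. The P209L controls had 193 and 208 TPM and the P209L mice 248, 263 and 294 TPM. The 3 P209L mice were above all 14 other mice.

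Wild-type mice were compared across age first, since the P209L controls are the only wild-type cortex of 3 weeks. As these controls all belong to the P209L line, age and line cannot be told apart in the wild-type mice either. Isg15, Bst2 and Irf7 were higher at 3 weeks than at 8 weeks, and the MHC class I genes did not pass the test. Group means were 8.22 ± 2.23 TPM (SD, n = 2) against 3.90 ± 0.68 TPM (n = 6) for Isg15, 11.4 ± 4.38 against 5.23 ± 0.87 TPM for Bst2 and 3.49 ± 1.27 against 1.93 ± 0.20 TPM for Irf7. On the log2(TPM + 1) scale, which understates the change of low genes, limma with Benjamini-Hochberg adjustment over 16265 genes gave differences of 0.96 ± 0.20 (SE) for Bst2 (adjusted p = 0.00184), 0.90 ± 0.21 for Isg15 (adjusted p = 0.00462) and 0.59 ± 0.18 for Irf7 (adjusted p = 0.0219).

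Thus 3 of 9 genes were called higher and 0 lower at an adjusted p under 0.05, where 11.3% of all tested genes were called higher and 24.8% lower. Isg15 and Bst2 hold the ISRE core in the promoter windows above, and Irf7 does not. Ifit1, Ifit3, Ifitm3 and B2m, which were not called, hold it too. The same 3 genes were the ones whose 3-week and 8-week controls did not overlap, a pattern that 16.7% of tested genes showed in that direction. An exact two-sided permutation test gave p = 0.0714 for each of them, the smallest it gave for any of the 9 in this comparison of 2 against 6 mice. Ifit3 differed by 0.38 ± 0.20 (limma, adjusted p = 0.160), Ifitm3 by 0.17 and Ifit1 by -0.04. B2m differed by -0.02, H2-K1 by -0.15 and H2-D1 by -0.16, with 95% intervals of -0.24 to 0.21, -0.67 to 0.37 and -0.63 to 0.32. The median of the 9 genes was 0.17 and that of all tested genes -0.12. With median-of-ratios scaling, which removes that shift, Ifit1 and B2m were above 0, at 0.054 and 0.13, and the called genes stayed at 3.

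The age result rested on 2 mice whose values went in different directions. P209L control 1 had more Isg15, Irf7, Ifit1 and Ifit3, and P209L control 2 had more Bst2, Ifitm3 and the 3 class I genes. Without P209L control 1, Isg15 was 0.65 (limma, adjusted p = 0.112) and Irf7 0.30 (adjusted p = 0.377), so that 1 gene was called. Without P209L control 2, Bst2 was 0.60 (limma, adjusted p = 0.0843) and 2 genes were called. Taking both 3-week groups against all 4 groups of 8 weeks called 5 of 9 genes higher and 0 lower, against 18.4% and 39.4% of all tested genes. In that wider comparison, which includes the P209L mice, Bst2 differed by 1.12 ± 0.13, Isg15 by 1.00 ± 0.14, Irf7 by 0.79 ± 0.12, Ifit3 by 0.63 ± 0.14 and B2m by 0.18 ± 0.07 (limma, adjusted p = 5.84e-06, 3.27e-05, 7.49e-05, 0.00104 and 0.0370). Ifit1 at 0.23, Ifitm3 at 0.29, H2-K1 at 0.03 and H2-D1 at -0.03 did not pass. With median-of-ratios scaling 7 of 9 were called higher, against 31.2% of all tested genes higher and 31.0% lower, and these included Ifit1 at 0.35 and Ifitm3 at 0.44 (limma, adjusted p = 0.0323 and 0.00797) but neither heavy chain, H2-K1 at 0.19 and H2-D1 at 0.13. With KO control 1 and P209L control 2 both left out, a choice made after seeing the data, 5 of 9 were called higher, against 16.7% of all tested genes higher and 42.6% lower. Ifit1 was then called at 0.41 (limma, adjusted p = 0.00340) and B2m at 0.14 was not (adjusted p = 0.122). The B2m value includes the 3 P209L mice, and the 2 controls of that line were at 200 ± 10.7 TPM against 203 ± 14.1 TPM in the 8-week controls.

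**Figure D2:**
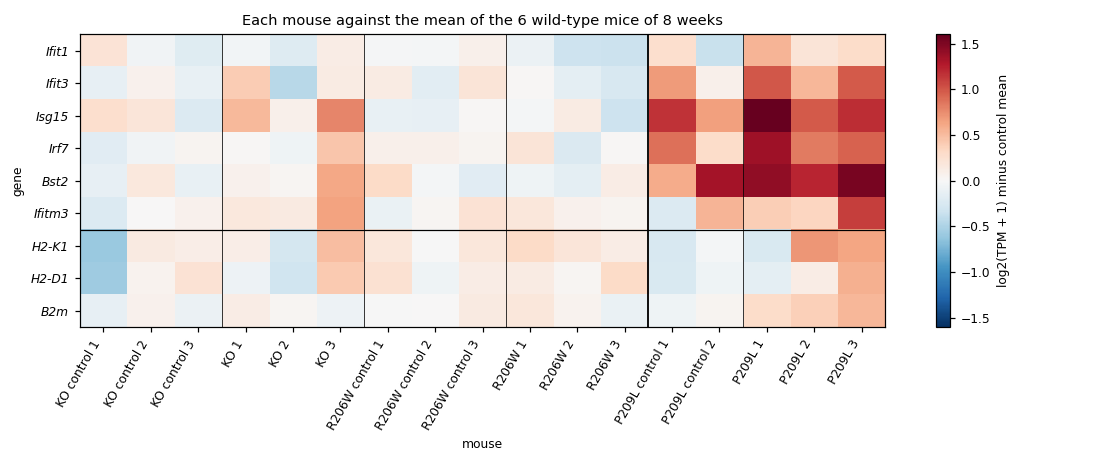
Each of the 9 genes (rows) in each of the 17 mice (columns), as log2(TPM + 1) minus the mean of the 6 wild-type mice of 8 weeks; red is above that mean and blue below it. The thick vertical line parts the 12 mice of 8 weeks from the 5 of 3 weeks, and the horizontal line parts the interferon-induced genes from the class I genes. Isg15, Irf7 and Bst2 are red in all 5 mice of 3 weeks, and the class I genes are blue or near 0 in both P209L controls.

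The rest of the pathway held genes called in both directions with age. Of 71 tested interferon pathway genes other than the 9, 7 were higher and 9 lower in the 3-week controls, beside 11.3% and 24.8% of all tested genes. With median-of-ratios scaling 15 were higher and 9 lower, beside 21.5% and 22.6% of all tested genes. Their median was -0.03. Called higher were Ifi27l2a by 1.52 (6.23 ± 0.014 against 1.63 ± 0.84 TPM), the antiviral GTPase Mx2 by 1.30 (4.0 ± 1.15 against 1.01 ± 0.18 TPM), Rnaseh2c, a subunit of the enzyme that removes RNA from DNA hybrids, by 1.00, the exonuclease Isg20 by 0.82 and Rtp4 by 0.77. Called lower were Herc6, the mouse ligase that joins ISG15 to its targets, by -0.87 (7.40 ± 0.25 against 14.4 ± 1.87 TPM), the receptor-bound kinase Jak2 by -0.79 and the double-stranded RNA sensor Tlr3 by -0.72. By role, effectors were split with 5 higher and 3 lower of 37, sensors had 0 higher and 3 lower of 10, and signalling genes 0 higher and 2 lower of 6. None of the 5 tested receptors was called, and 1 had an unadjusted p under 0.05 in limma.

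The wider MHC class I list also had called genes in both directions. Of 24 tested genes other than the 9, 1 was higher and 5 lower at 3 weeks, and with median-of-ratios scaling 4 were higher and 5 lower, so that the share called lower was near that of all tested genes under both scalings. Psmb10, a subunit of the immunoproteasome that cuts peptides for class I, was higher by 0.46 (77.1 ± 2.34 against 55.7 ± 3.01 TPM). The peptide loading chaperones Tapbp and Canx were lower by -0.71 and -0.55, the peptide trimming enzyme Erap1 by -0.64, and the non-classical heavy chains H2-T23 and H2-T22 by -0.63 and -0.57. All 8 tested non-classical heavy chains had values below 0, and 2 of them were called. Of all tested genes 39.3% had values above 0, with a median of -0.12. Without KO control 1 the interferon list had 26 called genes and the MHC list 10, and without P209L control 2 they had 8 and 3.

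**Figure D3:**
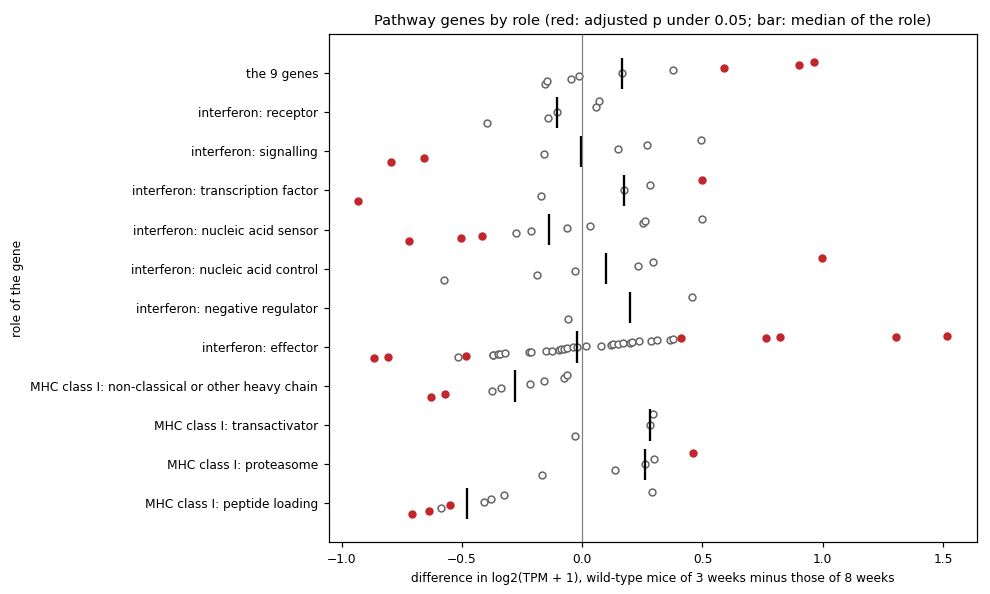
Difference in log2(TPM + 1) between wild-type mice of 3 weeks (n = 2) and of 8 weeks (n = 6) for the 9 genes and for the wider interferon and MHC class I lists by role; red points passed an adjusted p under 0.05 in limma, open points did not, and black bars are the median of each role. The 9 genes have 3 red points, all right of 0, whereas effectors and sensors have red points left of 0 too, and peptide loading genes have 3, all left of 0.

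Interferon genes themselves were scarcely present. Of 17 listed ligands, 11, among them Ifnb1 and Ifna4, were listed at 0 in all 17 mice, and the highest value of any was 0.18 TPM for Ifng in KO 2. Receptors were well above that, led by Ifngr2 with 21.01 to 36.2 TPM and Ifnar1 with 17.1 to 32.5 TPM, whereas Ifnlr1 stayed at or below 0.11 TPM. Markers of other cells also differed with age. All 5 blood markers were higher at 3 weeks, with sums of 1905 to 4884 TPM in the 5 mice of 3 weeks against 560 to 1323 TPM in the 12 of 8 weeks. Of 12 microglia markers, 4 were higher (Aif1, Trem2, C1qb and C1qc) and 4 lower (Csf1r, Cx3cr1, Sall1 and P2ry12), and of 7 oligodendrocyte markers 5 were higher. All 7 astrocyte markers and 8 of 9 neuron markers had values below 0, with 3 and 4 called lower. Of all tested genes 39.3% had values above 0, 11.3% were called higher and 24.8% lower. Oligodendrocyte markers summed to 4075 and 6083 TPM in the P209L controls, above the 2617 to 3927 TPM of the 12 mice of 8 weeks. The P209L mice, also of 3 weeks, overlapped that range at 2462 to 3533 TPM. Of 10 endothelial markers 1 was called higher (Ly6c1) and 2 lower (Cdh5 and Flt1). The choroid plexus and perivascular macrophage markers each had 1 of 3 called higher, Ttr and Pf4. The choroid plexus sum was high in P209L control 2 alone, at 1783 TPM. P209L control 1, at 10.7 TPM, lay within the 4.85 to 28.4 TPM of the 12 mice of 8 weeks. Limma called 0 of 10 leptomeningeal fibroblast markers and 0 of 6 MHC class II genes, with 1 and 0 at an unadjusted p under 0.05. The part of these cells in the differences of the 9 genes was not tested.

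In the P209L line no gene passed the adjusted threshold, yet all 9 had a higher mean in the mutants than in their controls. B2m was at 268 ± 23.5 TPM (SD, n = 3) in P209L mice and 200 ± 10.7 TPM (n = 2) in controls, a difference of 0.42 ± 0.12 (SE) with a 95% interval of 0.17 to 0.67 (limma, unadjusted p = 0.00256, adjusted p = 0.296). The others ranged from 0.34 for H2-D1 to 0.51 for H2-K1, with 0.46 for Irf7, 0.45 for Ifit3, 0.45 for Ifitm3, 0.42 for Bst2, 0.40 for Ifit1 and 0.38 for Isg15. Called genes were 0 of 9 by limma (0.0984% of all tested genes were called), and 3 of 9, B2m, Irf7 and Ifit1, were higher at an unadjusted p under 0.05, which 4.56% of all tested genes reached in that direction. B2m was the only gene of the 9 whose groups did not overlap, against 14.2% of tested genes with the mutants above. Its exact two-sided permutation p was 0.2, the smallest value of this form of the test for 2 against 3 mice.

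The median of the 9 differences was 0.42 and that of all tested genes 0.02. Because 2 control mice set the baseline, several of these values depended on which was used. Without P209L control 1, Bst2 and Ifitm3 were 0.053 and 0.068 and Ifit1 stood at 0.71. Without P209L control 2, Ifit1 and Isg15 were 0.084 and 0.13, and Bst2 and Ifitm3 0.79 and 0.83. B2m moved least, from 0.35 to 0.47 over the 5 fits that each left out 1 mouse of the line. None of these fits called any of the 9.

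Other interferon genes in the P209L line gave 0 of 71 called by limma and 11 at an unadjusted p under 0.05, 9 of them higher and 2 lower, where 7.46% of all tested genes reached that p in either direction. The smallest p belonged to Slfn2 with a difference of 0.69 (5.28, 2.97 and 2.53 TPM against 1.48 and 2.05 TPM) and to the double-stranded RNA kinase Eif2ak2 with 0.42 (4.75, 5.85 and 5.78 TPM against 3.40 and 4.25 TPM). In the MHC list 0 of 24 were called and 1 had an unadjusted p under 0.05, the immunoproteasome subunit Psmb8 with 0.49, followed by H2-T22 with 0.21. List medians were 0.05 for the interferon genes and 0.04 for the MHC genes. The 9 genes had 9 of 9 values above 0, whereas the interferon list had 44 of 71 and the MHC list 17 of 24. Of all tested genes, 53.5% had values above 0. These counts carry no test, because the 9 differences share the same mice and some of the 9 genes vary together. The genes and lists were also chosen with earlier results of these data known. Summed microglia markers overlapped, at 388 to 447 TPM in P209L mice and 378 to 512 TPM in controls. Endothelial markers were lower in sum, at 305 to 336 against 339 to 385 TPM, as were oligodendrocyte markers at 2462 to 3533 against 4075 to 6083 TPM, leptomeningeal fibroblast markers at 50.3 to 74.6 against 89.1 to 102 TPM and perivascular macrophage markers at 6.09 to 8.19 against 9.17 to 12.05 TPM. Neuron markers were lower in sum too, at 4577 to 5711 against 5757 to 5775 TPM. The share of all tested genes without overlap in that direction is not given here. Blood markers overlapped, at 1905 to 2837 against 2572 to 4884 TPM, as did MHC class II genes at 20.04 to 24.9 against 21.2 to 29.3 TPM. Values were below 0 for all 10 endothelial, 10 leptomeningeal, 7 oligodendrocyte, 5 blood and 3 perivascular macrophage markers. They were below 0 for 6 of 9 neuron markers and 5 of 6 MHC class II genes. Limma called none of these, with 0, 4, 7, 2, 1, 1 and 1 at an unadjusted p under 0.05. The part of these cells in the 9 differences was not tested.

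In the KO line 8 of 9 genes had a higher mean in the mutants, beside 67.3% of all tested genes with a difference above 0, and none was called. Ifitm3 was the only gene whose groups did not overlap, with 27.2 ± 5.66 TPM (SD, n = 3) in KO mice and 20.7 ± 2.23 TPM (n = 3) in controls, a difference of 0.37 ± 0.21 (limma, adjusted p = 0.999). Such a pattern with the KO mice above was present in 5.43% of tested genes, and its exact permutation p was 0.1, the smallest that 3 against 3 mice allow. Isg15 differed by 0.38, Bst2 by 0.27, H2-K1 by 0.22, Irf7 by 0.19 and Ifit1 by -0.04. Called genes were 0 of 9, with 0 at an unadjusted p under 0.05, and 0.00615% of all tested genes were called. The median of the 9 was 0.19 and that of all tested genes 0.06.

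The KO group was uneven. KO 3 held the highest value of its group for 7 of the 9 genes and KO 2 the lowest for 8. Without KO 3, Isg15 was 0.22, Ifitm3 0.21, Bst2 0.08 and Irf7 0.04. Without KO control 1, the library that stood apart, H2-K1 was -0.02. Microglia markers summed to 444 to 573 TPM in KO mice, highest in KO 3, and 391 to 439 TPM in controls, and MHC class II genes to 25.05 to 32.1 against 22.7 to 23.5 TPM. KO 3 also had the highest sums in the series for endothelial (505 TPM), leptomeningeal fibroblast (125 TPM) and astrocyte markers (2426 TPM). Values were above 0 for 11 of 12 microglia, 6 of 6 MHC class II, 10 of 10 endothelial, 9 of 10 leptomeningeal and 7 of 7 astrocyte genes. They were also above 0 for 7 of 7 oligodendrocyte, 5 of 5 blood, 6 of 9 neuron, 2 of 3 perivascular macrophage and 2 of 3 choroid plexus markers. Of all tested genes 67.3% were above 0, and with median-of-ratios scaling their median in this line was -0.0039. Limma called none of these marker genes. At an unadjusted p under 0.05 were 2, 2, 0, 1 and 2 genes of the first 5 lists and 0 of the others. The part of these cells in the values of the 9 genes was not tested. In the wider lists limma called 0 of 71 interferon genes and 0 of 24 MHC genes, with 5 and 2 at an unadjusted p under 0.05, which 4.08% of all tested genes reached in either direction. The smallest p were those of Rnaseh2c with 0.37 and Ifitm1 with 0.53, and of the peptide transporter Tap1 with 0.52 (1.87, 1.29 and 2.66 TPM against 0.82, 0.91 and 1.33 TPM) and the immunoproteasome subunit Psmb9 with 0.36.

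In the R206W line the 9 genes lay close to their controls. Differences ran from -0.27 for Ifit1 to 0.09 for H2-K1, with 4 of 9 above 0, a median of -0.01 and a median of 0.01 over all tested genes. Ifit1 was at 2.19 ± 0.32 TPM (SD, n = 3) in R206W mice and 2.82 ± 0.17 TPM (n = 3) in controls, and its groups did not overlap, which 8.11% of tested genes showed with the mutants below. Its difference had a 95% interval of -0.62 to 0.08 (limma, adjusted p = 1) and an exact permutation p of 0.1. No other gene of the 9 was without overlap. Called genes were 0 of 9, with 0 at an unadjusted p under 0.05 by limma. Of all tested genes 0.0369% were called, and 2.19% reached that unadjusted p in either direction. The wider lists gave 0 of 71 and 0 of 24, with 1 and 0 at an unadjusted p under 0.05, and their smallest p were those of Sp100 with 0.37 and the repressor Irf2 with 0.49, and of the proteasome activator subunit Psme2 with -0.20 and Erap1 with 0.26.

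**Figure D4:**
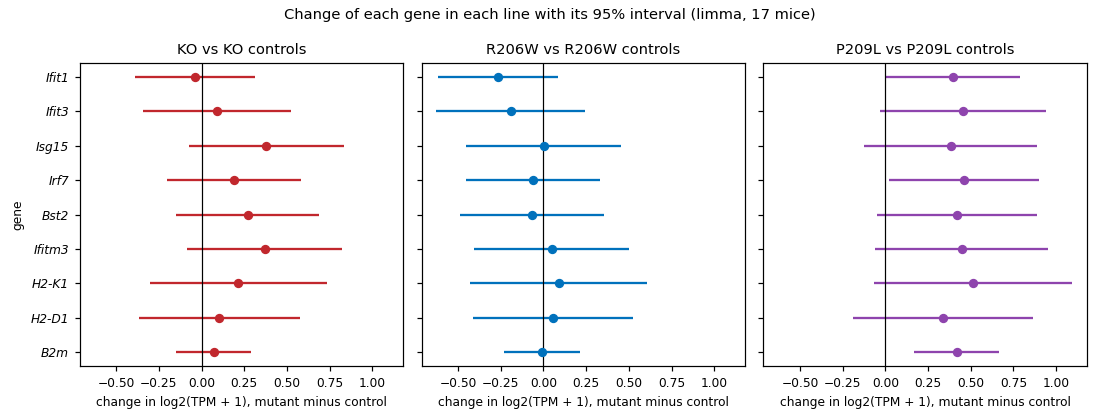
Difference between mutants and their own controls in log2(TPM + 1) for each of the 9 genes (points) with its 95% interval from limma (lines), for the KO, R206W and P209L lines. All 9 points are right of 0 in the P209L panel, where the intervals of B2m, Irf7 and Ifit1 do not include 0, and every interval includes 0 in the KO and R206W panels.

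Tests of the difference between lines did not separate them. The KO difference minus the R206W difference ranged from 0.05 for H2-D1 to 0.38 for Isg15, and limma called 0 of 9 (0 at an unadjusted p under 0.05) where 0.0307% of all genes were called. The P209L difference minus the R206W difference was 0.66 for Ifit1 (95% interval 0.13 to 1.19), 0.65 for Ifit3, 0.43 for B2m (0.09 to 0.76) and 0.28 for H2-D1, and all 9 were above 0. Of all tested genes, 50.6% were above 0. Here limma called 0 of 9 and 0.0% of all tested genes. B2m and Ifit1 had an unadjusted p under 0.05 in limma, which 3.98% of all tested genes reached in either direction. The adjusted p was 1.00 for each of the 9. These 2 comparisons share the R206W mice. Ages differ in the second, so line and age cannot be told apart. The wild-type controls of the 8-week lines were also set against each other, with R206W minus KO controls from -0.16 for Isg15 to 0.23 for H2-K1. Limma called 0 of 9, with 0 at an unadjusted p under 0.05, and 0.0% of all tested genes. The median of all genes in that comparison was 0.13, and -0.0020 with median-of-ratios scaling.

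Around the group means, pairs of the 9 genes ranged widely. Over the 17 mice, deviations from the group mean of log2(TPM + 1) had a median Pearson correlation of 0.04 over the 15 pairs of interferon-induced genes (-0.33 to 0.82), 0.39 over the 3 class I pairs (0.17 to 0.84) and 0.02 over the 18 pairs between them (-0.34 to 0.68). The correlation was 0.84 between H2-K1 and H2-D1 and 0.82 between Ifit1 and Isg15. Ifit1 also varied with Irf7 (0.70) and Ifit3 (0.64), and Ifit3 with Isg15 (0.69). Bst2 varied with Ifitm3 (0.59) and Ifitm3 with H2-D1 (0.68), whereas Ifit1 and H2-K1 had -0.34. These values describe 17 points that share library and scaling within a mouse, and carry no test. P209L 1 had the highest level of all 17 mice for Ifit1, Ifit3, Isg15 and Irf7, P209L 3 for Ifitm3, Bst2, H2-D1 and B2m, and P209L 2 for H2-K1.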

How the data were processed

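Cortex RNA from 17 mice was made into stranded total RNA libraries, and TPM values were deposited by the authors for each gene symbol. The submitters' processing notes name Trim Galore, STAR 2.7.1a, RSEM, GATK 4.0.4.0 and mm10, without their roles. Of 55573 entries, 120 that repeated a symbol were summed. Genes with a mean of at least 1 TPM were tested on log2(TPM + 1) with limma 3.58.1 in R 4.3.3 (a mean for each of 6 groups, empirical Bayes with a trend), and p-values were adjusted by the Benjamini-Hochberg method within each contrast at 0.05. Exact permutation tests used SciPy 1.17.1. TPM carries no depth, so counting error is unknown. The code was tested on simulated data. Gene positions came from GENCODE M21 and promoters from RefSeq, both on GRCm38. All 9 genes are named. From the wider lists, up to 8 called genes with the smallest p are named per contrast, or, where none was called, the 2 with the smallest p. The genes and lists were chosen with earlier results of these data known. Alternatives were pseudocounts of 0.1 and 0.5, no filter, median-of-ratios scaling, the groups of a contrast alone, a replicate block, each mouse left out, and all groups by age. Leaving out KO control 1 and P209L control 2 together was added after seeing the data.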

Additional observations from a re-analysis of the deposited data

Results flagged for a closer look

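Among the 6 wild-type mice of 8 weeks, H2-K1 in KO control 1 was at 24.18 TPM, far from the other 5, which lay between 36.6 and 41.9 TPM. The gap to the nearest of them was 0.700 of the whole range, above the critical value of 0.625 for 6 samples. Each of the 9 genes was examined in this way, and chance alone passes that value in about 1 of 20 groups. This mouse also had the highest mitochondrial share of TPM, 20.1%, and the lowest H2-D1 of the series at 21.2 TPM, and its part in these values was not tested.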

How the results depend on the processing

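In the 3 lines, in the differences between lines and between the 8-week controls, the count of called genes stayed at 0 for the 9 genes, the interferon list and the MHC class I list under every alternative run (without the filter the lists had 93 and 32 tested genes). Across age, the count of the 9 was 5 with all 6 groups by age and 1 to 3 with a mouse left out. For the interferon list it was 35 and 8 to 26, and for the MHC class I list 15 and 2 to 10. Of 467 alternative values for 34 differences of the 9 genes, 439 kept direction and side of the threshold, 22 changed sign, 5 lost the call with the same sign and 1, Ifit3 with all 6 groups by age, gained it. Sign changes on leaving out a mouse covered Ifit1 (-0.13 to 0.076) and H2-K1 (-0.023 to 0.41) in the KO line, H2-D1 in KO minus R206W (-0.19 to 0.21), H2-K1 between the 8-week controls (-0.011 to 0.36), and across age Ifit1 (-0.36 to 0.27), Ifitm3 (-0.21 to 0.55) and B2m (-0.070 to 0.039). Median-of-ratios scaling gave -0.016 for H2-D1 in KO minus R206W, and 0.054 for Ifit1 and 0.13 for B2m across age. With all 6 groups by age Ifit1 was 0.23, H2-K1 0.034 and B2m 0.18, which was also called. With KO control 1 and P209L control 2 both left out, Ifit1 was 0.32 and Ifitm3 -0.26, and Bst2 lost its call at 0.57 (limma, adjusted p = 0.0686). Without the filter Irf7 lost its call (limma, adjusted p = 0.0539). The cause was not tested. Whether replicate numbers pair the mice is not established here. The correlations of deviations between same-numbered mice ran from -0.11 to 0.33, and deviations from means of 2 or 3 mice cannot decide it. With the number as a replicate block the counts across age were 3 of the 9, 16 of 71 and 8 of 24, and no other count moved from 0. With 2 or 3 mice a group and no depth in TPM, differences of the size seen in the KO and P209L lines could not be separated from the spread between mice.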
